A study of Mus musculus with 120 samples.

Results

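The genes described here are the 9 that carry the constant, non-varying parts of antibodies in the mouse, together with the J chain: the heavy chain genes Ighm, Ighd, Ighg3, Ighg1, Ighg2b, Ighg2c and Igha, the kappa light chain gene Igkc, and Jchain. They were taken by symbol from the gene tables, and all 9 were found among 55487 genes. The samples were immunological niches (INs), microporous poly(e-caprolactone) scaffolds placed under the skin of female mice, the first at 4 weeks of age. Each was removed as a biopsy and replaced by a new one, so that 1 mouse gave biopsies at several times. Surgery was repeated weekly, so later biopsies can be of replacement scaffolds. For biopsies dated by age or onset, the labels do not give how long the scaffold had been in place. Age, repeated surgery and time in place therefore cannot be told apart in later biopsies. A biopsy holds host tissue that grew into the scaffold, and its bulk RNA was sequenced after ribosomal RNA depletion.

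NOR/LtJ mice (NOR) are related to the NOD strain and stay free of diabetes, and they gave 23 biopsies from 5 mice, aged 6, 10, 14, 18 or 22 weeks at biopsy. NOD/ShiLtJ mice (NOD) develop autoimmune diabetes in part of the colony. NOD nonprogressors stayed normoglycemic and gave 20 biopsies from 4 mice at the same 5 ages in batch 1, and 13 biopsies from 7 mice at 6 and 14 weeks in batch 2. NOD progressors became hyperglycemic and gave 58 biopsies from 10 mice, 10 each at 6 weeks of age, at 5, 3 and 1 weeks before onset (−5, −3 and −1) and at onset, and 8 at 7 weeks before onset (−7). Those at −7 were all in batch 2, 4 of them from mice whose other biopsies were in batch 1. All these mice carried an implant and none was untreated, the ages of the progressor biopsies after 6 weeks are not in the labels, and all NOR biopsies were in batch 1. A further 6 nonprogressor biopsies were dated by days after implantation and enter no comparison. Total counts were 4722396 to 56185434 per library in batch 1 (74 libraries, median 30186412) and 29029239 to 43880986 in batch 2 (46 libraries, median 36440355). Levels are given as CPM, the counts of a gene per 1000000 counts of the TMM-scaled library total. A count of 3, taken as the floor of detection, stood for 0.0708 to 0.0939 CPM in batch 2 progressors and for 0.0478 to 0.555 CPM in batch 1 nonprogressors. In the NOR library of mouse 5 at 18 weeks, where the ribosomal RNA gene CT010467.1 took 85.7% of the counts, it stood for 2.91 CPM.

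An antibody is made of heavy and light chains, each with a variable part that binds antigen and a constant part. A mature B cell that has not yet met antigen uses Ighm and Ighd together. Once stimulated by antigen and T cell cytokines, the cell can cut out the DNA between. The same variable part is then joined to a downstream gene (class switching), which gives IgG3, IgG1, IgG2b, IgG2c or IgA. Plasma cells, the end stage of the B lineage, secrete antibody and fill much of their RNA with these transcripts, and the J chain joins IgM and IgA units into polymers. In the mouse most antibodies use the kappa light chain.

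The 7 heavy chain genes lie on 1 strand of chromosome 12 in the GENCODE M21 annotation of GRCm38 (Ighm at chr12:113418558-113422730, Ighd at chr12:113406604-113416324, Ighg3 at chr12:113356224-113361232, Ighg1 at chr12:113325240-113330523, Ighg2b at chr12:113302965-113307933, Ighg2c at chr12:113285325-113288932 and Igha at chr12:113254830-113260236, all on the minus strand). Igkc is a gene of 532 exon bases at chr6:70726435-70726966 on the plus strand, and Jchain lies at chr5:88519809-88527891 on the minus strand. The 4 IgG genes are related in sequence, so reads had to be told apart. The secreted-form transcripts were 77% to 87.8% identical in pairwise alignment, the closest pair being Ighg2b and Ighg2c, and none of the 100-base windows of 1 IgG transcript occurred in another. The hinge, the flexible stretch between the arms and the stem of the antibody, is where the subclasses differ visibly in length and sequence, and its exon (exon 2 of each transcript, shown 5′ to 3′ on the transcribed strand, with no part in capitals) is printed because several results below turn on which IgG subclass was read. The exons lie at chr12:113329844-113329882 for Ighg1, chr12:113307261-113307326 for Ighg2b, chr12:113288263-113288325 for Ighg2c and chr12:113360529-113360576 for Ighg3.
Ighg1: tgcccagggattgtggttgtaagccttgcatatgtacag
Ighg2b: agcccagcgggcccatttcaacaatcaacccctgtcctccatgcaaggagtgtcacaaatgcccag
Ighg2c: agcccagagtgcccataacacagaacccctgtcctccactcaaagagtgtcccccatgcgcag
Ighg3: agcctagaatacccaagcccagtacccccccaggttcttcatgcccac
The Ighg1 hinge exon is the shortest at 39 bases, and those of Ighg3, Ighg2c and Ighg2b have 48, 63 and 66 bases.

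At 6 weeks of age, 2 weeks after implantation, antibody transcripts other than Ighm were low in every group. Igkc ranged from 0.249 to 2.76 CPM (median 1.05) over all 25 biopsies, Jchain from 0.0619 to 3.02 (median 0.466) and Igha from 0.196 to 4.06 (median 1.77). Ighd stayed at or under 0.557 CPM and the 4 IgG genes at or under 1.26 CPM, and Ighg3 had no count in 13 of the 25. Ighm differed from all of these, with 12.04 to 51.9 CPM (median 22.6) in the same biopsies. The plots of CPM by time show this starting level in the top row and the low starting levels below it.

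**Figure D1:**
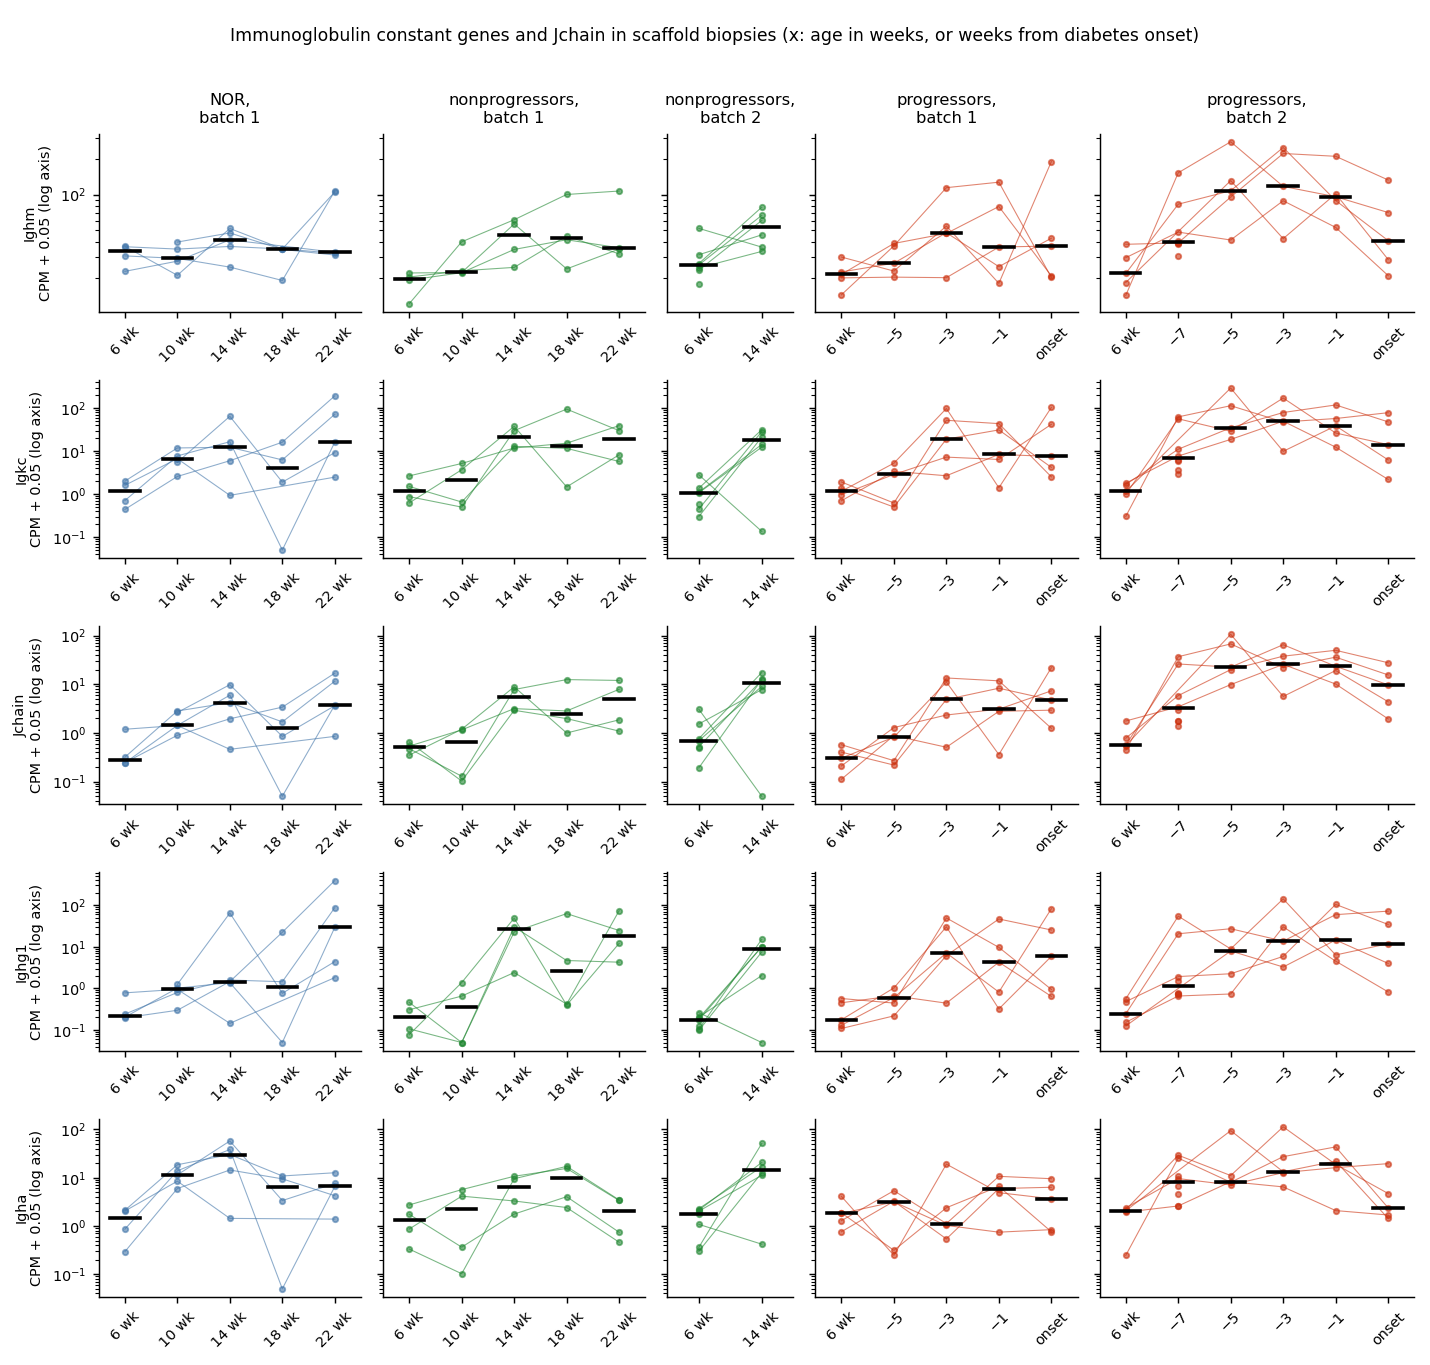
CPM plus 0.05 (log axis) of Ighm, Igkc, Jchain, Ighg1 and Igha in each biopsy, by age in weeks or weeks from onset, with lines joining biopsies of 1 mouse within a batch and black bars at group medians. Ighm began at 12.04 to 51.9 CPM, whereas Igkc lay at 0.249 to 2.76 CPM at 6 weeks and reached up to 292 CPM later.

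Because the genes differ in length, Ighm and Igkc were also compared per kilobase of exon. At 6 weeks the Ighm level per kilobase was 2.07 to 29.0 times that of Igkc (median 6.54), and it was the higher of both in 25 of 25 biopsies. In later biopsies dated by age or onset the median ratio was 0.981, and Ighm was the higher in 44 of the 88 with any Igkc count. The scatter of both genes shows the 6-week biopsies as a flat band of Ighm at low Igkc.

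**Figure D2:**
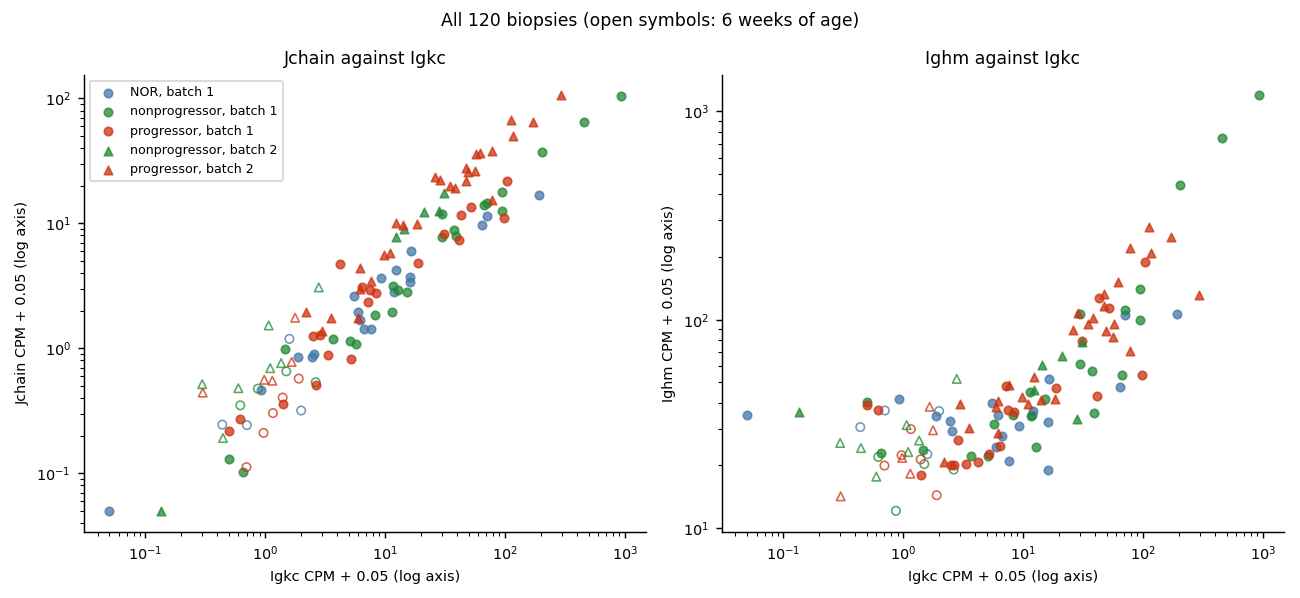
Jchain (left) and Ighm (right) against Igkc in all 120 biopsies, each as CPM plus 0.05 on log axes, with open symbols for 6 weeks of age, circles for batch 1 and triangles for batch 2. Jchain followed Igkc over the whole range (r = 0.973 on the log2 scale after centring each batch), and Ighm was flat at low Igkc and rose with it at high Igkc.

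Among the 25 biopsies at 6 weeks, Ighm made 80.6% to 96.5% of the summed counts of the 7 heavy chain genes (median 91.3%), and the switched genes (Ighg3, Ighg1, Ighg2b, Ighg2c and Igha together) made 2.14% to 19.5% (median 8.04%). Later, in the 89 biopsies dated by age or onset, the switched share ranged from 0% to 82.0% with a median of 28.4%. The lowest later value came from NOR mouse 5 at 18 weeks, with 39 heavy chain counts in all.

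NOR and NOD were first compared at 6 weeks within batch 1, to ask whether the strains differed before the later rise. Ighm was 36.4, 22.6, 30.5 and 36.6 CPM in the 4 NOR mice and ranged from 12.04 to 29.8 CPM (median 20.2) in the 9 NOD mice. The ranges overlapped, and the NOD level was lower by a log2 difference of −0.66 (SE 0.19), which did not pass the test (edgeR quasi-likelihood test, Benjamini-Hochberg adjusted p = 0.109, 4 NOR and 9 NOD mice). DESeq2 called it (adjusted p = 0.0383), and so did edgeR without progressor mouse 1 (adjusted p = 0.0399). Igkc differed by a log2 value of 0.13 (SE 0.45, edgeR adjusted p = 0.934). Of the 9 genes, 7 passed the filter on low counts and none was called by edgeR, where 2.11% of all genes tested were called (0.865% higher, 1.25% lower). Ighm alone of the 7 had an unadjusted p under 0.05, and DESeq2, which tested all 9, called Ighm and Ighg3.

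With age, the levels of kappa, J chain and IgA transcripts were higher in most NOR biopsies than at 6 weeks, and IgG1 was highest at the last age, although none of these passed the edgeR test. Igkc was 0.390 to 1.95 CPM at 6 weeks and 2.52 to 11.8 CPM at 10 weeks, ranges that did not overlap, and 16 of the 19 later biopsies lay above the highest 6-week value. Igha at 10 weeks was 18.6, 8.44, 11.4, 5.93 and 13.9 CPM in mice 1 to 5, against 0.244 to 2.06 CPM at 6 weeks, and every 10-week biopsy lay above every 6-week one. At 14 weeks it was 30.3, 1.39, 57.7, 14.4 and 38.5 CPM in the same order, so mouse 2 alone lay within the 6-week range.

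Ighg1 in NOR was 0.146 to 0.732 CPM at 6 weeks. At 22 weeks it was 87.6, 1.77, 4.37, 391.9 and 29.5 CPM in mice 1 to 5, all above the 6-week range, with the lowest and the highest far apart. Mouse 4 gave the highest Ighg1 level of any biopsy dated by age or onset. Ighm changed little, from 22.6 to 36.6 CPM at 6 weeks to a median of 34.8 CPM later (18.9 to 107).

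The fitted log2 changes of the mean of 10 to 22 weeks against 6 weeks in NOR were 3.75 for Igkc (SE 1.13, adjusted p = 0.413), 3.10 for Igha (SE 0.76, adjusted p = 0.22), 4.95 for Ighg1 (SE 1.82, adjusted p = 0.605), 2.82 for Jchain (SE 0.82, adjusted p = 0.394) and 0.31 for Ighm (SE 0.29, adjusted p = 0.909), by edgeR over 23 biopsies. None of the 9 was called, beside 0.0357% of all genes tested. An unadjusted p under 0.05 was found for 5 of the 9, and DESeq2 called 5 (Igha with adjusted p = 0.00224, Igkc 0.0262, Ighg1 0.0294, Jchain 0.0352 and Ighg2b). At 22 weeks alone against 6 weeks edgeR called 3, with log2 changes of 5.66 for Igkc (adjusted p = 0.0328) and 4.00 for Jchain (adjusted p = 0.0337) and with Ighg2b as the other. No share of all genes stands here beside the counts of 5, 5 and 3, so they are not read as results about the 9.

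In nonprogressors of batch 1 Ighg1, Igkc, Jchain and Ighm rose with age, and kappa and IgG1 levels stood clear of the 6-week range from 14 weeks in most biopsies. Igkc was 0.571, 0.822, 2.60 and 1.45 CPM in mice 1 to 4 at 6 weeks, 3.63, 0.448, 5.10 and 0.604 at 10 weeks, and 37.7, 29.8, 11.7 and 12.8 at 14 weeks. The 14-week values did not overlap those of either earlier age. Ighg1 was 0.0272 to 0.412 CPM at 6 weeks and 48.9, 22.8, 2.36 and 30.0 CPM at 14 weeks, again without overlap. At 18 weeks mouse 2 stood far above the others with 94.6 CPM of Igkc and 62.9 of Ighg1, against 1.42 to 15.2 CPM of Igkc in mice 1, 3 and 4. All 16 later biopsies had more Ighm than the highest 6-week biopsy (21.9 CPM), with a later range of 22.0 to 107 CPM. On CPM of the unscaled library totals 9 of the 16 did (above 24.8 CPM, later range 17.0 to 104 CPM). At 22 weeks the noncoding RNA gene Rn7s2 took 12.8% to 30.5% of the counts of these libraries, and its part in this was not tested.

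Against 6 weeks, the mean of the later ages was higher by log2 changes of 5.55 for Ighg1 (SE 1.57, adjusted p = 0.0279), 3.34 for Igkc (SE 0.96, adjusted p = 0.0297), 2.75 for Jchain (SE 0.86, adjusted p = 0.0415) and 1.22 for Ighm (SE 0.38, adjusted p = 0.0398), by edgeR over 20 biopsies of 4 mice. These 4 of 9 were called, beside 13.8% of all genes tested (7.15% higher, 6.61% lower). Igha had a log2 change of 1.61 (SE 0.89, adjusted p = 0.237) and was not called. In a fit blocked on the mouse Jchain did not pass (adjusted p = 0.064), and without any 1 of the 4 mice none of the 4 genes passed, with adjusted p from 0.0523 to 0.166.

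In a second set of nonprogressors, in batch 2, Igkc, Igha, Jchain and Ighm rose from 6 to 14 weeks, and Igha was the switched gene with the most counts in the 5 biopsies with at least 20 switched counts. Igkc in mice 5 to 10 was 2.76, 0.396, 1.31, 0.249, 1.05 and 1.02 CPM at 6 weeks and 0.0855, 28.4, 31.3, 21.1, 14.3 and 12.3 CPM at 14 weeks. Mouse 5 went from the highest value of its group to the lowest, and the other 5 lay above all 7 biopsies at 6 weeks. Igha in the same mice at 14 weeks was 0.370, 51.3, 20.7, 12.6, 11.2 and 16.8 CPM, against 0.249 to 2.23 CPM at 6 weeks. Mouse 5 at 14 weeks had no count of Jchain or of any IgG gene, while its Ighm level was 36.1 CPM.

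The log2 changes at 14 against 6 weeks were 4.09 for Igkc (SE 0.77, adjusted p = 0.00153), 3.76 for Igha (SE 0.75, adjusted p = 0.00206), 3.31 for Jchain (SE 0.80, adjusted p = 0.00625) and 0.91 for Ighm (SE 0.25, adjusted p = 0.0118), by edgeR over 13 biopsies. These were 4 of the 7 genes that passed the filter, beside 34.1% of all genes tested (16.8% higher, 17.3% lower). Blocked on the mouse, Jchain (adjusted p = 0.0868) and Ighm (adjusted p = 0.0588) did not pass. Ighg1 and Ighg3 were removed by the filter, although Ighg1 was 0.0475 to 0.212 CPM at 6 weeks and 0, 10.0, 15.1, 9.96, 1.99 and 7.46 CPM in mice 5 to 10 at 14 weeks, above the 6-week range in 5 of 6. Without the filter both were called as higher, which made 6 of 9. At 6 weeks Ighg3 was 0 to 0.0713 CPM, where the floor stood for 0.0713 to 0.0947 CPM. The share of all genes called without the filter is not given here, so the count of 6 is not read as a result about the 9.

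Genes of fat, muscle and mammary tissue were higher in the same 14-week libraries. All 8 adipocyte and all 8 skeletal muscle genes were higher at 14 than at 6 weeks in batch 2, and the summed mammary epithelium list (casein, keratin and other genes of milk-producing tissue) was 1.58 to 3.28 CPM at 6 weeks and 1.77 to 445 CPM at 14 weeks. Of the T cell list 5 of 10 and of the B cell list 4 of 12 genes were higher in batch 2 at 14 weeks. Of the B cell list 1 gene was lower, as were 4 of 8 macrophage genes. In the same fit 16.8% of all genes tested were called higher and 17.3% lower. In batch 1 nonprogressors none of the 8 adipocyte, 8 muscle or 3 tested mammary genes was called with age, beside 13.8% of all genes tested. The part of these tissues and cells in the antibody result was not tested, and in bulk RNA more antibody-secreting cells and more antibody RNA per cell cannot be told apart.

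**Figure D3:**
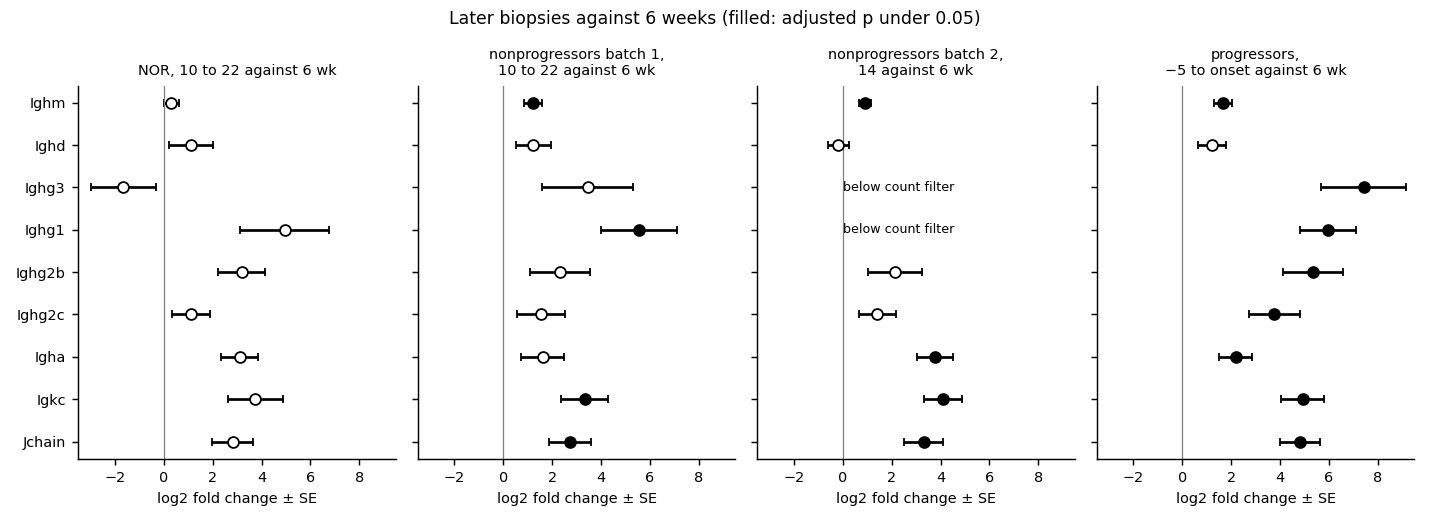
Log2 fold changes (points) with their standard errors (bars) of the 9 genes, later biopsies against 6 weeks, from the edgeR fits in NOR, both nonprogressor batches and progressors. Filled points had an adjusted p under 0.05, and 8 were filled in progressors, 4 in each nonprogressor batch and none in NOR.

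The age changes of NOR and batch 1 nonprogressors were then compared directly, and no gene passed the test of the difference. Of the 9 antibody genes 0 were called by edgeR for the difference of both age changes, as were 0% of all genes tested. None of the 9 had an unadjusted p under 0.05, and DESeq2 called 0 of them. For Igha the age change of nonprogressors minus that of NOR was −1.48 on the log2 scale (SE 1.08, edgeR adjusted p = 0.871).

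NOR and nonprogressor mice were also compared over all ages, with the biopsies of each mouse summed, and Igha came nearest to a difference without passing. At 10 weeks the NOR values of 5.93 to 18.6 CPM lay above the nonprogressor values of 4.11, 0.0527, 5.62 and 0.315 CPM without overlap, and at 14, 18 and 22 weeks the ranges overlapped. At 18 weeks the median was the lower one in NOR, with 0 to 10.8 CPM (median 6.38) against 2.36 to 17.2 CPM (median 9.77) in nonprogressors. The 0 came from NOR mouse 5, in whose library 3 counts stood for 2.91 CPM. The order of the medians is therefore not read as a difference. The log2 difference of nonprogressors from NOR over all ages was −1.71 (SE 0.55, edgeR adjusted p = 0.104, 4 against 5 mice). It was called by DESeq2 (adjusted p = 0.0433) and with all 9 NOD mice of batch 1 in place of the 4 nonprogressors (−1.72, edgeR adjusted p = 0.0189). Ighm differed by −0.13 (SE 0.23, edgeR adjusted p = 0.826). None of the 9 genes was called by edgeR, beside 6.26% of all genes tested (2.63% higher, 3.63% lower), 1 (Igha) had an unadjusted p under 0.05, and DESeq2 called 1.

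In progressors 8 of the 9 genes were called higher in the fitted mean of −5 to onset, among them all 5 switched heavy chain genes. Of these, Ighg3 passed the filter through later biopsies, since it did not pass in the fits of 6-week biopsies alone. Igha was less even: from 6 weeks to onset it was higher in 5 of 10 mice and lower in 5. From −5 to onset, 8 of 20 biopsies in batch 1 and 17 of 20 in batch 2 lay above its 6-week range. Igkc was 0.252 to 1.86 CPM at 6 weeks over 10 mice. In batch 2 it was 34.8, 113.5, 292.3, 18.6 and 28.8 CPM at −5 in mice 6 to 10, and all 20 biopsies from −5 to onset lay above the 6-week range (2.14 to 292 CPM, median 42.95). In batch 1 it was still 5.18, 3.33, 0.570, 2.81 and 0.450 CPM at −5 in mice 1 to 5 and reached 97.7, 2.62, 51.9, 7.19 and 18.9 CPM at −3, and 17 of 20 biopsies from −5 to onset lay above the 6-week range (median 6.76 CPM).

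Jchain moved with Igkc. It was 0.0619 to 1.71 CPM at 6 weeks, 0.169 to 21.8 CPM (median 2.80) from −5 to onset in batch 1 and 1.89 to 106 CPM (median 22.1) in batch 2. All 20 of the batch 2 biopsies and 16 of the 20 of batch 1 lay above the 6-week biopsies of their batch, and from 6 weeks to onset both genes were higher in 10 of 10 mice.

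The mean of −5 to onset was higher than 6 weeks, by edgeR over 58 biopsies with batch as a term, by log2 changes of 4.82 for Jchain (SE 0.80, adjusted p = 3.53e-06), 4.93 for Igkc (SE 0.89, adjusted p = 1.23e-05), 5.95 for Ighg1 (SE 1.15, adjusted p = 3.86e-05) and 1.66 for Ighm (SE 0.37, adjusted p = 0.000352). The other switched genes were also called, with changes of 5.35 for Ighg2b (adjusted p = 0.000388), 7.42 for Ighg3 (adjusted p = 0.000549), 3.77 for Ighg2c (adjusted p = 0.00317) and 2.18 for Igha (adjusted p = 0.00849). Ighd, the chain of IgD on naive B cells, had a change of 1.21 (SE 0.56, edgeR adjusted p = 0.0824). Thus 8 of 9 were called, all higher, beside 39.5% of all genes tested (19.6% higher, 19.9% lower), and the median change of the 9 was 4.82 against 0.01 over all genes tested. Ighg3, which passed the filter through later biopsies, is part of both values, so neither is read as a result about the 9. Within batch 2 alone 8 were called and within batch 1 alone 3 (Ighg1, Igkc and Jchain), where Ighm (1.20, edgeR adjusted p = 0.0718), Ighg2b (3.06, 0.0912), Ighg2c (2.07, 0.16) and Igha (1.11, 0.325) kept their direction. At onset alone against 6 weeks 6 were called by edgeR, without Ighg2c (adjusted p = 0.207) and Igha (adjusted p = 0.132). No share of all genes called stands here beside the counts of 8, 3 and 6, so they are not read as results about the 9.

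Ighg3, an IgG subclass often made without T cell help, differed in range between the batches. It did not pass the filter in the fits of 6-week biopsies alone, so it entered the progressor fit through later biopsies. In the 20 batch 2 progressor biopsies from −5 to onset it ranged from 0.0301 to 55.8 CPM (median 1.39), with 55.8 CPM in mouse 7 at −5, 52.5 in mouse 6 at −1 and 48.8 in mouse 9 at −3. In the 20 biopsies of batch 1 it stayed between 0 and 1.21 CPM (median 0.0373), in NOR after 6 weeks between 0 and 3.73 CPM and in batch 1 nonprogressors between 0 and 4.49 CPM. The batches hold different mice, so batch and mouse cannot be told apart here.

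Biopsies at −7, all in batch 2, already had higher levels than 6 weeks. Igkc over the 8 mice was 2.94 to 62.3 CPM (median 6.90), above all 5 batch 2 biopsies at 6 weeks (0.252 to 1.73 CPM) in 8 of 8, and Ighg1 was 0.607 to 54.6 CPM against 0.075 to 0.51 CPM. The log2 changes were 4.10 for Igkc (SE 1.05, adjusted p = 0.00697), 3.68 for Jchain (SE 0.94, adjusted p = 0.00639), 5.28 for Ighg1 (SE 1.59, adjusted p = 0.0199) and 2.74 for Igha (SE 0.93, adjusted p = 0.0375), by edgeR over 33 biopsies. These 4 of 9 were called, beside 19.1% of all genes tested (9.75% higher, 9.32% lower). Ighg3 had a change of 6.01 (SE 2.35, adjusted p = 0.0693). In the fit blocked on the mouse Ighg3 passed (adjusted p = 0.036) and Igha did not (adjusted p = 0.0718). Igha also failed without the 6-week biopsy of any 1 of mice 6 to 10 (adjusted p of 0.066 to 0.085), and Ighg1 failed without that of mouse 9 (adjusted p = 0.055). DESeq2 called 7 of the 9, a count that has no share of all genes beside it here and is not read as a result about the 9. At −7 all 8 adipocyte genes, 6 of 9 mammary, 7 of 10 T cell and 4 of 18 B cell genes were higher as well, and 1 of the B cell list was lower. In the fits of 6-week biopsies alone 2 mammary and 12 B cell genes passed the filter. The others passed it through later biopsies, so the mammary and B cell counts are not read as results about these lists. The part of the adipocyte, mammary, T cell and B cell genes in the antibody changes was not tested.

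From −5 to onset the antibody genes as a group did not move in 1 direction. Igkc was higher at onset in 5 of 5 mice of batch 1 and lower in 4 of 5 of batch 2, with a fitted log2 change of 0.08 (SE 0.84, edgeR adjusted p = 0.976). Within batch 1 alone the change was 3.69 (edgeR adjusted p = 0.104) and within batch 2 alone −1.71 (adjusted p = 0.26), and the difference between the batches was not tested. Ighg2c was 3.37, 1.36, 0.219, 0.263 and 0.0843 CPM at −5 in mice 1 to 5 and 1.76, 0.409, 332, 12.6 and 5.05 CPM in mice 6 to 10. At onset it was 1.95, 0.465, 0.112, 0.750 and 0.235 CPM in mice 1 to 5 and 3.71, 2.02, 0.834, 0.155 and 0.511 CPM in mice 6 to 10, so that it was lower in 6 of 10 mice and the ranges overlapped.

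The fitted change of Ighg2c at onset against −5 was −4.63 (SE 1.13, edgeR adjusted p = 0.0269), and it was the only one of the 9 that was called by edgeR, beside 1.77% of all genes tested (0.827% higher, 0.945% lower). The call rested on mouse 8: without that mouse the change was −1.21 (edgeR adjusted p = 0.507). Without mouse 9 it was −4.38 (adjusted p = 0.0905), and blocking on the mouse gave −2.12 (adjusted p = 0.262). At −5 mouse 8 also had the highest Igkc (292 CPM), Ighg2b (170 CPM) and Igha (94.6 CPM) of its group, and 2 weeks later its Ighg2c was 1.20 CPM.

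**Figure D4:**
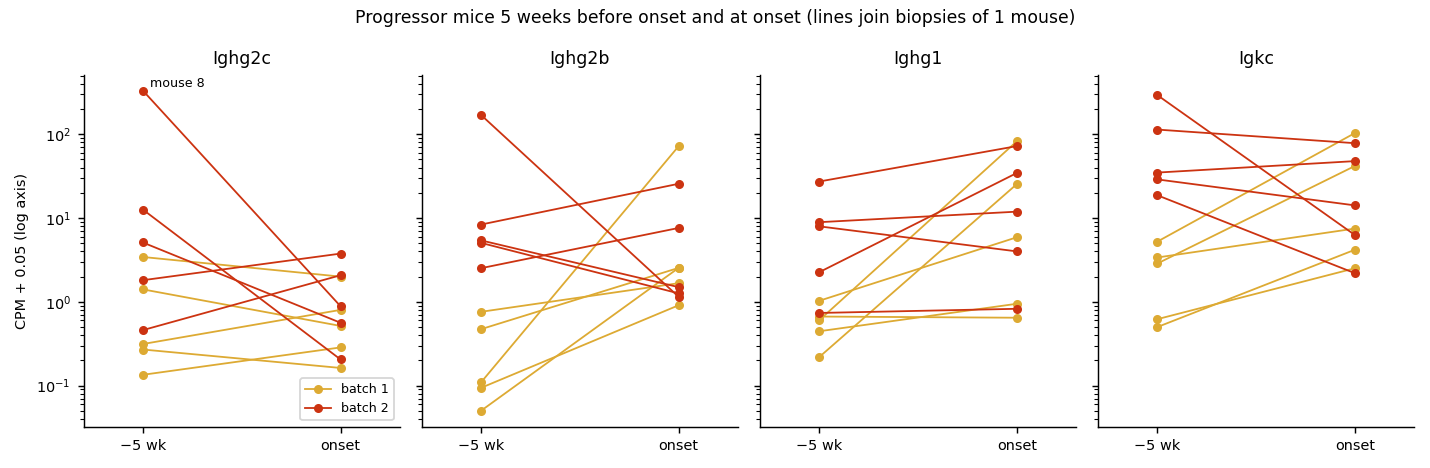
CPM plus 0.05 (log axis) of Ighg2c, Ighg2b, Ighg1 and Igkc at −5 and at onset, with lines joining both biopsies of each of the 10 progressor mice, coloured by batch. Ighg2c in mouse 8 went from 332 to 0.834 CPM, and Igkc was higher at onset in 5 of 5 batch 1 mice and lower in 4 of 5 batch 2 mice.

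Progressors and nonprogressors were compared at 6 weeks and again later, to ask whether antibody transcripts set apart the mice that became diabetic. At 6 weeks Ighm was 14.1 to 38.1 CPM (median 21.5) in 10 progressors and 12.04 to 51.9 CPM (median 23.1) in 11 nonprogressors, and Igkc had medians of 1.11 and 1.02 CPM. The log2 differences were −0.03 for Ighm (SE 0.20, adjusted p = 0.994) and −0.03 for Igkc (SE 0.38, adjusted p = 0.996), by edgeR with batch as a term. Of the 8 genes that passed the filter 0 were called and none of all genes tested (0%), 0 had an unadjusted p under 0.05, and DESeq2 called 0.

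Later biopsies were summed per mouse, −5 to onset in progressors and 10 to 22 weeks in batch 1 nonprogressors. Batch 2 nonprogressors had later biopsies at 14 weeks alone, where each of 6 mice gave a single biopsy. The ages of both groups match only roughly. Ighm was higher in progressors by a log2 value of 0.72 (SE 0.25, adjusted p = 0.448) and Ighg2c by 3.45 (SE 1.11, adjusted p = 0.388), by edgeR over 10 mice a group, and neither passed. None of the 9 was called by edgeR or DESeq2, nor was any of all genes tested by edgeR (0%), although 5 of the 9 had an unadjusted p under 0.05 in edgeR. No share of all genes with such a p stands here beside that count. The 9 are also not separate signals, with Igkc and Jchain at r = 0.973 over all biopsies. The count of 5 is therefore not read as a result about the 9.

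The leading switched isotype varied between biopsies. Of the 85 later biopsies with at least 20 switched counts, Igha had the most counts of the switched genes in 42, Ighg1 in 32, Ighg2c in 6, Ighg3 in 3 and Ighg2b in 2. Per kilobase of the secreted-form transcript, whose lengths are alike (1076 to 1114 bases), Igha led in 43, Ighg1 in 32, Ighg2c in 6, Ighg3 in 3 and Ighg2b in 1. At 6 weeks Igha led by counts in 21 of the 23 biopsies with that many. In NOR Igha led in 12 of 18 later biopsies and Ighg1 in the other 6, with no biopsy led by another subclass, while Ighg2c, Ighg3 or Ighg2b led in 1 of 20 in nonprogressors and in 10 of 47 in progressors, and both of these groups, unlike NOR, span 2 batches. No test was made of these shares, since they are formed from the same genes.

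**Figure D5:**
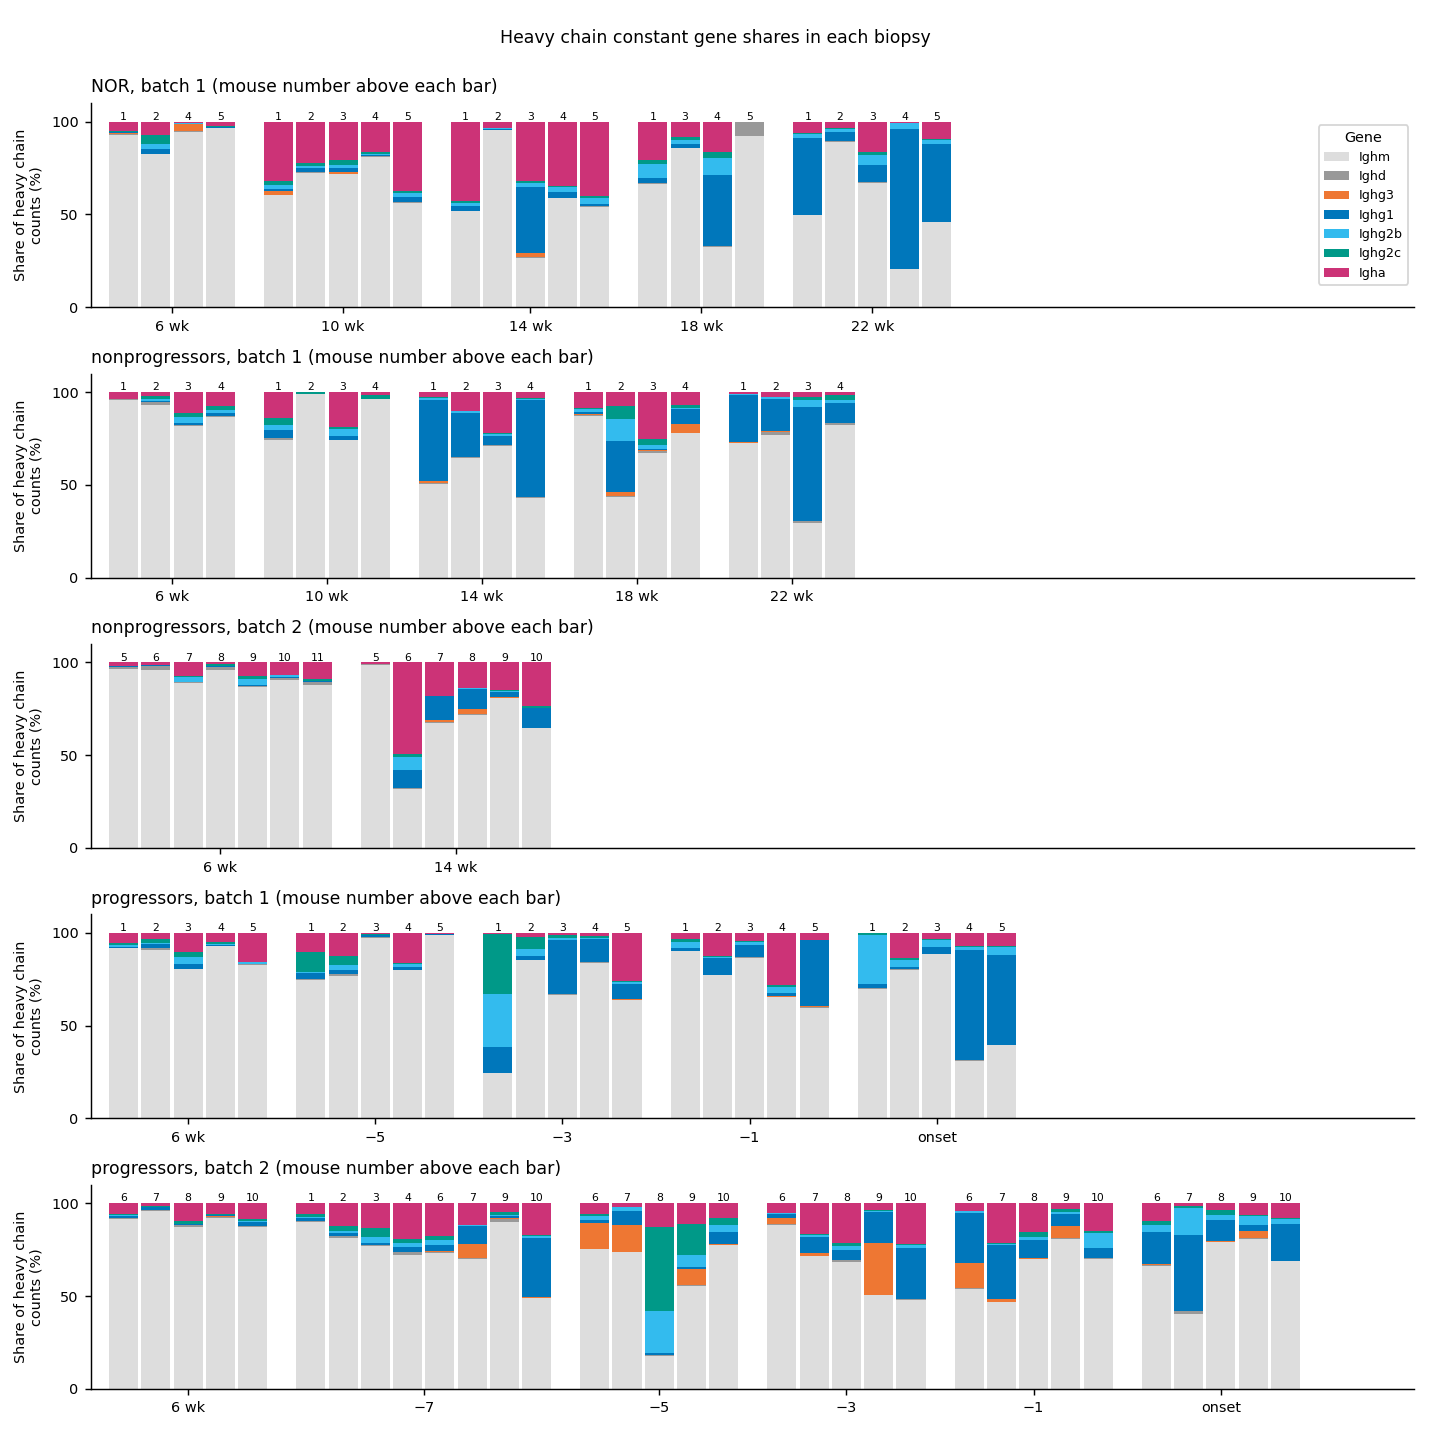
Percent of the summed counts of the 7 heavy chain constant genes taken by each gene, 1 bar per biopsy with the mouse number above it, by group and time. Ighm took 80.6% to 96.5% of each bar at 6 weeks, and later bars showed Igha in NOR at 10 and 14 weeks, Ighg1 at 22 weeks, and Ighg2c and Ighg2b in single progressor biopsies.

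Single biopsies could be dominated by 1 isotype. Ighg1 made 75.6% of heavy chain counts in NOR mouse 4 at 22 weeks and 61.3% in nonprogressor mouse 3 at 22 weeks. In progressor mouse 8 at −5 Ighg2c made 45.02% and Ighg2b 23%, and in progressor mouse 1 at −3 they made 32.5% and 28.7%. A high level in 1 biopsy did not have to recur in the next scaffold of the same mouse: progressor mouse 1 had 63.5 CPM of Ighg2b at −3, 0.695 at −1 and 72.1 at onset.

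Of the other antibody genes outside the 9, 3 rose in progressors. Ighe, the heavy chain of IgE, was listed at 0 in 20 of the 25 biopsies at 6 weeks and reached 10.4 CPM in batch 2 progressors, with a log2 change of 6.06 in progressors (edgeR adjusted p = 0.000478). The lambda light chain genes Iglc1 and Iglc2 rose by 3.87 each (edgeR adjusted p = 0.000946 and 0.000147). Of the 6 genes of this list the 3 that passed the filter were all called, beside 39.5% of all genes tested. None of the 6 passed the filter in the fits of 6-week biopsies alone. The 3 thus passed it through later biopsies, where they were high, and their number is not read as a result about the list. Iglc3, which did not pass it, had medians of 0.103 CPM at 6 weeks and 0.304, 0.169, 0.0536 and 0.0902 CPM from −5 to onset in batch 2. In biopsies with at least 100 Igkc counts, Iglc1 to Iglc3 together had 0 to 12 counts per 100 Igkc counts in batch 1 (median 2.87, n = 46) and 1.52 to 10.0 in batch 2 (median 3.85, n = 33).

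Variable gene levels were summed without a test. The summed Igkv level in batch 2 progressors was 0.14 to 1.11 CPM at 6 weeks and 8.22 to 84.6 CPM at −5. In batch 1 progressors it was 0.04 to 0.555 CPM at 6 weeks, 0 to 1.09 CPM (median 0.37) at −5, which overlapped, and 0.262 to 19.9 CPM (median 4.35) at −3. Counts were found for 94 of 160 Igkv genes, of which Igkv6-20 had the highest total (8113 counts in 78 biopsies), while Ighv9-3 led the 185 Ighv genes with 2566 counts. In the 60 later biopsies with at least 50 Igkv counts, the most abundant Igkv gene took 9.09% to 69.3% of them (median 23.9%), the highest being Igkv6-20 in NOR mouse 4 at 22 weeks, the biopsy with the highest Ighg1.

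Of the plasma cell list some genes rose and some fell. In progressors Mzb1, a chaperone of antibody assembly, rose by a log2 change of 3.06 (edgeR adjusted p = 0.00189), Sec11c, a part of the signal peptidase, by 0.56 (adjusted p = 2.91e-06) and Ell2, an elongation factor, by 0.38 (adjusted p = 0.000173). Txndc5 and Fkbp11, protein folding factors of the endoplasmic reticulum, fell by 0.66 (adjusted p = 1.11e-09) and 0.68 (adjusted p = 0.000101). Of 20 genes tested in this list 6 were higher and 2 lower, a share close to the 39.5% of all genes tested that were called (19.6% higher, 19.9% lower). Many of the list are also used by other cells of the scaffold: the summed list was 683 to 961 CPM at 6 weeks and 641 to 951 CPM later, and Tnfrsf17, a receptor of late B cells and plasma cells, was at 0 to 0.725 CPM in all biopsies. In batch 2 progressors Tnfrsf17 was 0.028 to 0.275 CPM at 6 weeks, 0.404 to 0.705 CPM at −7 and 0.343 to 0.689 CPM at −5, both without overlap with 6 weeks, and 0 to 0.212 CPM at onset. Its log2 change was 1.61 at −7 against 6 weeks (edgeR adjusted p = 0.0266) and 0.82 for the mean of −5 to onset (edgeR adjusted p = 0.101).

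Of the B cell identity genes, in progressors 11 of 18 were higher and 1 lower, beside 19.6% and 19.9% of all genes tested, among them Cd37 (0.48, edgeR adjusted p = 1.6e-06), Blnk (0.54, adjusted p = 1.36e-05) and Cd22 (0.66, adjusted p = 0.000126), and Ebf1, which is also used by adipose progenitors, fell by 0.99 (adjusted p = 8.53e-07). In the fits of 6-week biopsies alone 12 genes of this list passed the filter. The others passed it through later biopsies, so the count of 11 is not read as a result about the list. The summed B cell list was 252 to 359 CPM at 6 weeks and 262 to 441 CPM later, of which Cd37 and others that myeloid cells also use form a part, so that the list gives no count of B cells.

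Markers of other cell types moved in progressors as well. Of the T cell list 6 of 10 were higher, beside 19.6% of all genes tested, led by Cd5 (1.20, edgeR adjusted p = 4.04e-06), Cd2 (0.84, adjusted p = 0.000748) and Cd3d (1.5, adjusted p = 0.000931). Of the mammary list 7 of 9 were higher, led by Elf5 (3.18, edgeR adjusted p = 0.00595), Lalba (3.58, adjusted p = 0.0118) and Csn2 (4.55, adjusted p = 0.013), with a summed level of 1.52 to 37.2 CPM at 6 weeks and 0.679 to 391 CPM from −5 to onset. In the fits of 6-week biopsies alone 2 of the 10 mammary genes passed the filter. The others passed it through later biopsies, so the count of 7 is not read as a result about the list. Against 39.5% of all genes tested, none of the 8 adipocyte and 8 muscle genes was called, 1 of 8 macrophage genes was lower (Marco, which fell by 3.95, edgeR adjusted p = 4.57e-11), and 1 of 4 lymph node stroma genes was higher (Glycam1, 0.87, edgeR adjusted p = 0.00464). The part of these cell types in the antibody results was not tested.

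Of the class switch and germinal centre genes, 4 of 12 were higher and 2 lower in progressors, beside 19.6% and 19.9% of all genes tested. Bcl6 rose by 0.45 (edgeR adjusted p = 3.94e-06), S1pr2 by 0.28 (adjusted p = 0.00279) and Il21r by 0.45 (adjusted p = 0.0245), and Ung, a uracil DNA glycosylase that acts in class switching, fell by 0.51 (adjusted p = 2.48e-05). Of the switch cytokines and survival factors, Tnfsf13 (APRIL) rose by 1.36 (edgeR adjusted p = 2.16e-13), Tnfsf13b (BAFF) by 0.58 (adjusted p = 1.17e-05) and Ccl25 by 0.21 (adjusted p = 0.00967), and Il10 fell by 0.56 (adjusted p = 0.0448), 4 of 10 tested, which is near the 39.5% of all genes tested. Of the receptors that bind antibody 4 of 8 tested were called, where the inhibitory Fcgr2b rose by 0.91 (edgeR adjusted p = 0.000957), Fcer1g by 0.39 (adjusted p = 0.0175) and Fcgr3 by 0.29 (adjusted p = 0.0268), and Fcgr1 fell by 0.69 (adjusted p = 0.00592).

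Across all 120 biopsies, with log2 CPM centred on each batch, the genes outside the immunoglobulin loci that most resembled Jchain included Pou2af1 (r = 0.873), Mzb1 (0.858), Ms4a1 (0.761), Mrgprg (0.736), Ubash3a (0.708), Cd6 (0.706), Slain1 (0.690) and Ltb (0.688). For Igkc they included Pou2af1 (0.894), Mzb1 (0.864), Ms4a1 (0.785), Ltb (0.742), Cd6 (0.742), Ubash3a (0.733), Slain1 (0.725) and Mrgprg (0.725). These are descriptions over samples that share mice, time and depth. Of the 50 genes nearest to Jchain 32 were immunoglobulin genes, and of those nearest to Igha 13, where St6galnac2 (0.788) and the T cell gene Cd3e (0.773) came first. Among the 9 genes themselves r ranged from 0.227 for Ighd and Ighg3 to 0.973 for Igkc and Jchain.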

How the data were processed

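Gene tables of expected counts in whole numbers, 1 per batch, were deposited by the authors. The submitters' processing notes name cutadapt, FastQC, STAR, RSEM, MultiQC and GRCm38, and their roles, versions and the strand setting are not given in the sources used here. RSEM, a tool that estimates counts, divides reads between similar genes, so the split between IgG subclasses carries that uncertainty. Rows were joined by gene identifier, and 4 reporter rows were dropped. CPM used TMM-scaled library sizes. Library totals are given with the samples, and 3 counts were taken as the floor of detection, which covers counting error only.

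Each comparison was fitted across all genes by the quasi-likelihood test of edgeR (version 4.0.16, under R 4.3.3), after its filter on low counts and TMM scaling, with Benjamini-Hochberg adjustment and a threshold of 0.05. Alternatives were relative log expression scaling, no filter, DESeq2 1.42.0, the mouse as a block, each batch alone, single times and each mouse left out. Leaving out each mouse in the progressor, batch 2 nonprogressor and later-biopsy fits, leaving out the nonprogressor library of mouse 3 at 18 weeks, shares per secreted transcript, and counts above the 6-week range on unscaled totals were chosen after seeing the data. Samples of 1 mouse share the animal, which is the origin of the pairing. The mean correlation of their deviations over 2000 genes was −0.0259 in NOR, 0.0321 and −0.184 in nonprogressors of batch 1 and 2, and −0.0449 and −0.013 in progressors of batch 1 and 2. Unblocked p-values treat biopsies of 1 mouse as independent.

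Coordinates and lengths came from GENCODE M21, which matched 55227 of 55487 identifiers (99.5%). Named genes were the 9 antibody genes, of each marker list up to 3 genes per direction with the smallest p among those past the threshold, and the 10 genes outside the immunoglobulin loci that correlated most with Jchain and with Igkc. Tnfrsf17, Iglc3 and Rn7s2 were named after their values were seen, and some genes that the rule picked are not reported here. The 9 genes and all lists were chosen with earlier results of these data known. On simulated counts, the share of genes changed by a log2 value of 1 that were recovered was 84% for progressors over time (20958 genes), 58% for the strains at 6 weeks (18827 genes) and 51% for age in batch 1 nonprogressors (19392 genes). The changed genes were drawn at random and the libraries were simulated as independent. These shares were thus not measured for the 9 genes or for repeated biopsies of 1 mouse. Figures used Python 3.11.15 with matplotlib 3.10.9.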

Additional observations from a re-analysis of the deposited data

Results flagged for a closer look

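Dixon's criterion, which marks a highest or lowest value that stands apart from the rest, was applied within groups of 4 to 10 biopsies. It is set for normally distributed values, whereas CPM were skewed, and Igkc and Jchain moved together. The number of marked sets was therefore not compared with chance. Of 69 sets of Ighm, Igkc or Jchain values, 12 had a highest or lowest biopsy that stood apart. In NOR these were Jchain in mouse 2 at 6 weeks (1.139 CPM), Igkc in mouse 3 at 14 weeks (64.23 CPM) and Ighm in mouse 4 at 18 weeks (18.91 CPM). In batch 1 nonprogressors mouse 2 stood apart each time, with Ighm of 40.02 CPM at 10 weeks and 107 CPM at 22 weeks, and with Igkc of 94.56 CPM and Jchain of 12.39 CPM at 18 weeks. In batch 2 nonprogressors at 6 weeks it was mouse 5, with 51.94 CPM of Ighm and 2.756 CPM of Igkc. In progressors it was mouse 1 at onset in batch 1 (189.3 CPM of Ighm), and in batch 2 mouse 9 at 6 weeks (1.706 CPM of Jchain) and mouse 7 at −7 (152.3 CPM of Ighm).

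The 6 nonprogressor biopsies dated 31, 38 and 108 days after implantation, which enter no comparison, held the 2 highest levels of Ighm and of Igkc in the series. At 108 days Ighm was 1196 and 745 CPM, Igkc 930.1 and 455.5 CPM, and Jchain 104.1 and 64.75 CPM, against at most 107, 94.56 and 12.39 CPM in the batch 1 nonprogressors dated by age. How long the scaffolds dated by age had been in place is not in the labels, so age and time in place cannot be told apart.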

How the results depend on the processing

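Scaling by relative log expression changed no call among the 9 genes' results. With DESeq2 the number of called genes was 755 against 403 for NOR and NOD at 6 weeks, 2466 against 1439 for summed mice, 38 against 7 for age in NOR, 7 against 0 for the difference of the age changes, 837 against 377 for onset against −5, and 233 against 0 for later progressors and nonprogressors (3 with relative log expression scaling and 4 in batch 2 alone). Of the 9 genes DESeq2 called 2 at 6 weeks between strains, 1 in summed mice, 5 for age in NOR, 7 at −7 and 2 at onset. These counts have no share of all genes tested beside them and are not read as results about the 9. Without the filter the counts were 12 for age in NOR and 103 for onset, and 1 of the 9 genes passed between strains at 6 weeks. With the mouse as a block they were 2 for age in NOR, 2144 against 4077 at −7, and 0 of the 9 at onset, and the block changed no other call than those given with the results. Age in NOR gave 12 genes without the library of mouse 5 at 18 weeks, and 212 genes with 3 of the 9 for 22 against 6 weeks, which in batch 1 nonprogressors gave 4236 against 2712. Batch 1 alone gave 5317 genes against 8403 and 3 of the 9 for progressors over time, and 1 gene and 0 of the 9 for onset, where batch 2 alone gave 1973. All NOD mice of batch 1 gave 1 of the 9 against NOR.

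Leaving out 1 mouse at a time gave 0 to 54 genes for age in NOR, 377 to 2766 and 0 to 0 of the 9 for batch 1 nonprogressors, 4661 to 8290 and 3 to 5 for batch 2 nonprogressors, 7349 to 8242 and 8 to 9 for progressors, 10 to 1088 and 0 to 1 at onset, 267 to 420 and 0 to 1 between strains at 6 weeks, 881 to 1169 for summed mice, and 0 to 39 for later progressors and nonprogressors. At −7, where 1 of the 5 biopsies at 6 weeks was left out at a time, 2711 to 3737 genes and 2 to 3 of the 9 were called. Direction turned for values near 0: Ighm between summed strains was 0.080 with all NOD mice, Igkc at onset −1.71 in batch 2 alone and −0.63 to 1.34 without 1 mouse, Ighm and Igkc of progressors and nonprogressors at 6 weeks 0.22 in batch 1 alone and 0.11 in batch 2 alone, and Igkc between strains at 6 weeks −0.15 to 0.52 without 1 mouse. The causes were not tested. Low IgG counts at 6 weeks limit the precision of their fold changes.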

Other observations

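In the 6 nonprogressor biopsies dated by days after implantation, Igha was 46.8 and 72.6 CPM at 31 days, 43.9 and 42.9 CPM at 38 days, and 133 and 90.4 CPM at 108 days. All 6 lay above the highest batch 1 nonprogressor dated by age (17.2 CPM), as did all 6 for Jchain, 5 of 6 for Ighm and Ighg2c, 4 for Igkc, 2 for Ighd and Ighg2b, 1 for Ighg1 and 0 for Ighg3. Ighg3, at 0.0361 to 0.857 CPM, was thus the exception among the switched genes. Per kilobase of exon, Igkc was above Ighm in all 6. Ighe, the IgE heavy chain, ranged from 0.0391 to 54.0 CPM. The summed B cell list was 338 to 474 CPM and the T cell list 46.5 to 76.7 CPM in these biopsies.

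The amount of Jchain beside Igkc differed in range between the batches. In biopsies with at least 100 Igkc counts there were 8.75 to 47.8 Jchain counts per 100 Igkc counts in batch 1 (median 23.1, n = 46) and 19.8 to 110 in batch 2 (median 52.6, n = 33). Among progressors from −5 to onset the values were 11.3 to 47.8 (median 26.1, n = 14) and 19.8 to 88.6 (median 56.6, n = 19). Apart from 4 biopsies at −7 the batches hold different mice, so a difference between libraries and one between mice cannot be told apart, and no test was made.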
